A study of Mus musculus with 16 samples.

Results

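RNA-seq data of bone endothelial cells (ECs) were compared between 3 control libraries and 3 libraries labelled ECKO, for an endothelial knockout of Yap1 and of Wwtr1, the gene that encodes Taz. These 6 samples were chosen by their labels alone and are 6 of the 16 in the series. The comparison asks which transcripts differ when both co-activators are deleted from endothelium. All mice had the C57BL/6 background and carried the alleles Yap1flx/flx and Wwtr1flx/flx. Control mice were Cdh5CreERT2 negative and ECKO mice Cdh5CreERT2 positive, and cells were taken at postnatal day 21 and sorted by FACS. Cdh5CreERT2 is a Cre recombinase that is active only after tamoxifen and only in cells that use the Cdh5 promoter. According to the study's methods, tamoxifen was injected into pups, controls were littermates, and animals of both sexes were combined, so single libraries carry no stated sex. The study calls its RNA-seq replicates biological.

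Values are FPKM, that is, fragments per kilobase of exon, scaled to the size of the library. The steps between low values imply 4750000, 6880000 and 6190000 fragments in control replicates 1 to 3, and 4670000, 5850000 and 5680000 in ECKO replicates 1 to 3. Control 1 listed 13434 genes above 0, fewer than the other libraries, which listed 14237 to 14686. Of 21603 genes, 11320 averaged 1 FPKM or more across all 6 libraries, and limma tested these on log2(FPKM + 1). A gene averaging under 1 FPKM in 1 group can pass this filter through the other group alone. Of the tested genes named below, Hist1h2al, Ifi202b, Bglap, Bglap2, Timp4, Col2a1, F3 and Tead4 did so, and their differences are descriptions. Every difference below is ECKO minus control on this log2 scale, which understates the change of low genes, and a gene was called at an adjusted p-value under 0.05. Where values are listed, they run from replicate 1 to replicate 3. Libraries were made from total RNA with a stranded kit. How strand was handled in counting is nowhere given, so where a named gene shares 10% or more of its exon bases with a neighbour, the share is given and its value is uncertain.

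Yap1 and Taz are transcriptional co-activators without a DNA-binding domain of their own. In the Hippo pathway, Mst kinases activate Lats kinases, which phosphorylate Yap1 and Taz and so keep them in the cytoplasm, while unphosphorylated Yap1 and Taz enter the nucleus and bind Tead transcription factors. In endothelium, both are known for roles in vessel sprouting, junction remodelling and the response to blood flow.

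Neither targeted gene was called lower in the libraries labelled ECKO. Wwtr1 (ENSMUSG00000027803, chr3:57455649-57575910, GRCm38) stood at 10.01, 9.88 and 10.3 FPKM in the control libraries and at 15.3, 19.6 and 19.5 FPKM in the libraries labelled ECKO. All 3 ECKO libraries were above all 3 controls, so the transcript of a gene labelled as deleted was higher, not lower, with means of 10.1 ± 0.24 and 18.1 ± 2.48 FPKM (SD, n = 3 each). The difference was 0.78 (SE 0.12, limma adjusted p = 0.0272). It was 0.77 without control 2 (limma adjusted p = 0.0752), 0.80 without control 3 (limma adjusted p = 0.0715), 0.72 without ECKO 2 (limma adjusted p = 0.18) and 0.73 without ECKO 3 (limma adjusted p = 0.144). Yap1 (ENSMUSG00000053110, chr9:7931999-8004596) stood at 1.07, 1.62 and 0.995 FPKM in controls and at 1.43, 1.03 and 0.989 FPKM under the ECKO label. The groups overlapped, with the highest value in control 2 and the lowest in ECKO 3, and the difference of -0.04 was not called (SE 0.18, limma adjusted p = 0.934). Without control 2 it was 0.08 and without ECKO 3 it was 0.01. Yap1 rested on few reads, 47 to 103 per control library and 52 to 62 per ECKO library. These values count reads over all exons of a gene. Which exons the floxed alleles lose is not resolved by them, so they do not show whether the alleles recombined. The groups are therefore called the libraries labelled ECKO throughout, and every direction rests on the labels. According to the study, quantitative PCR on isolated mutant bone ECs gave less Yap1 and Wwtr1 transcript than in controls, and endothelial Yap1 staining was weaker. Those measures run the way of the labels and were not re-examined here.

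**Figure D1:**
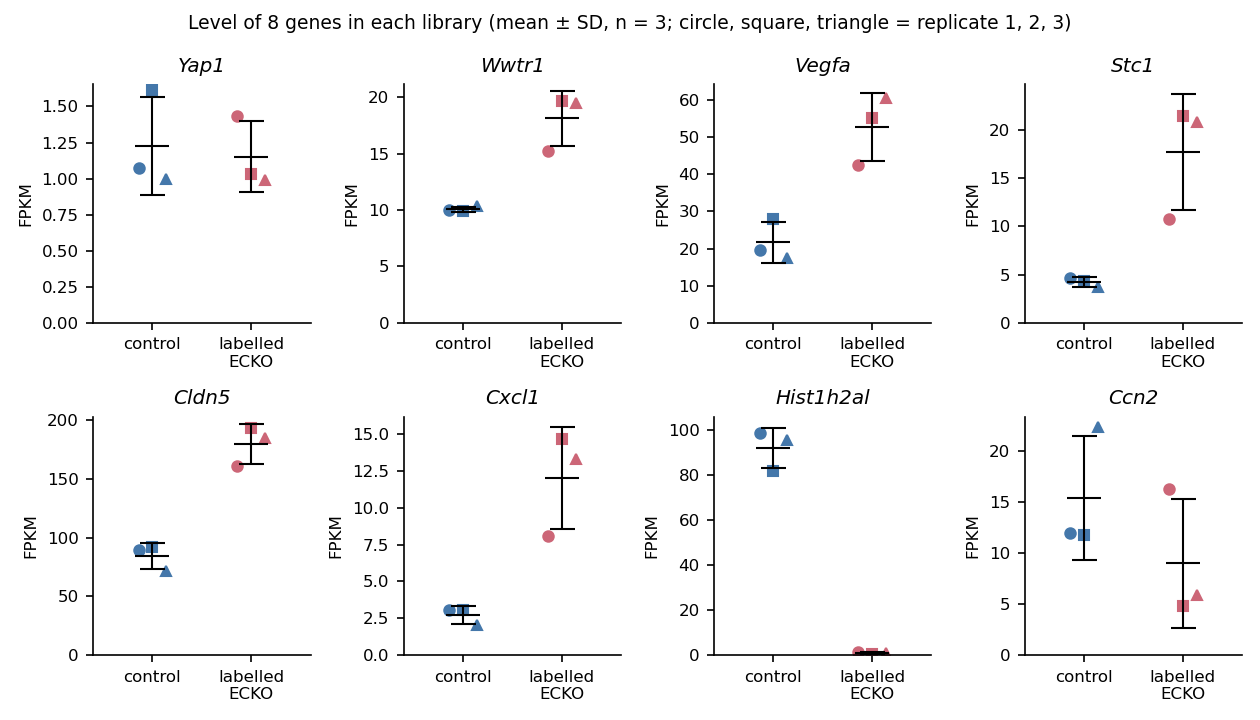
FPKM of 8 genes in each library, with the group mean and SD (n = 3); circles, squares and triangles are replicates 1, 2 and 3. Wwtr1 is above all controls in the 3 libraries labelled ECKO, Yap1 and Ccn2 overlap between groups, and Hist1h2al is near 90 FPKM in controls and near 1 FPKM under the ECKO label.

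Wwtr1 was the 1 called gene among 21 tested members of the Hippo core list, where 20 were not called and the median difference was 0.07, against -0.005 over all 11320 tested genes. Stk3 and Stk4, which encode the Mst kinases, differed by 0.33 and -0.13, and Lats1 and Lats2 by 0.08 and 0.35, none of them called. Lats2 shares 42.4% of its exon bases with a gene on the same strand and is uncertain. Mob1a, which activates Lats kinases and was the most abundant member, stood at 50.7 to 54.6 FPKM in controls and at 54.9 to 61.6 FPKM under the ECKO label. Of the Tead factors, Tead2 was at 2.63 to 4.02 FPKM in controls and 4.13 to 4.58 FPKM under the ECKO label. Tead4 was at 0.586 to 1.17 FPKM and 1.55 to 1.62 FPKM, apart but not called (0.41, limma adjusted p = 0.266). Tead1 and Tead3 fell short of a mean of 1 FPKM and were not tested. Vgll4, which competes with Yap1 for Tead factors, was at 14.6 to 20.5 and 21.1 to 26.7 FPKM and was not called. Limma thus called no kinase, adaptor or Tead factor of the list, while 7 of the 21 genes were at an unadjusted p under 0.05 and limma-voom on recovered reads called 2, Wwtr1 and Amotl1, a Yap1-binding angiomotin. All ECKO libraries were above all controls in 9 of the 21 and below in 2. For this and every list below, the shares over all tested genes were 1.31% called, 12.3% with all ECKO libraries above and 11.3% below. At an unadjusted p under 0.05 there were 2023 of 11320 genes, and limma-voom called 386 of 11310.

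Of 22 listed transcriptional targets of Yap1 and Taz 15 were tested, and limma called 0, with 3 at an unadjusted p under 0.05, 0 called by limma-voom on recovered reads, and a median difference of 0.03. The 3 were F3, Ccn1 and Lats2, all with a positive difference. F3, tissue factor, which starts coagulation, stood at 0.898, 0.620 and 0.258 FPKM in controls and at 1.48, 1.55 and 1.69 FPKM under the ECKO label. All ECKO libraries were above all controls, and the difference of 0.71 was not called (SE 0.19, limma adjusted p = 0.0974), but was called with array weights (0.79, limma adjusted p = 0.0282). F3 averaged 0.592 FPKM in controls and 1.57 FPKM under the ECKO label. It passed the filter only through the ECKO libraries, so its difference is a description. Ccn2, a matricellular growth factor and widely used target, stood at 12, 11.7 and 22.4 FPKM in controls and at 16.2, 4.78 and 5.91 FPKM under the ECKO label. ECKO 1 lay among the controls, while ECKO 2 and ECKO 3 lay below all of them (difference -0.83, SE 0.37, limma adjusted p = 0.282). Without ECKO 1 it was -1.31 and called (limma adjusted p = 0.0338), the only call among its 15 alternative settings, which ranged from -1.31 to -0.52. Ccn2 shares 23.2% of its exon bases with a gene on the other strand. Ccn1, its relative, stood at 15.2, 16 and 11.2 FPKM in controls and 15, 23.0 and 21.8 FPKM under the ECKO label, with overlapping groups. Amotl2, a scaffold that binds Yap1, varied from 4.50 to 4.81 FPKM over all 6 libraries. Axl, a receptor tyrosine kinase and the most abundant target, was at 92.4 to 121 FPKM in controls and 95.7 to 107 FPKM under the ECKO label. Ankrd1, a nuclear ankyrin repeat protein, and Foxf2, a forkhead factor, were listed at 0 in all 6 libraries.

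Beyond the targeted genes, limma called 148 of 11320 genes (1.31%), of which 100 (0.883%) were higher and 48 (0.424%) lower in the libraries labelled ECKO. Higher genes included those for Stc1, Vegfa and Cldn5, inflammatory cytokines and clotting regulators, and lower ones included replication histones, Myc and Mycn, and plasma cell and bone matrix genes. All 148 had groups that did not overlap, a pattern found in 1391 tested genes with ECKO above (12.3%) and 1276 with ECKO below (11.3%). At an unadjusted p under 0.05 there were 1108 higher and 915 lower genes. In 78 of the 100 higher genes ECKO 1 was the lowest ECKO library, and in 22 of the 48 lower genes it was the highest. The number of calls rested on single libraries: it was 293 without ECKO 1, 114 without control 1, 20 without control 2, 14 without control 3, and 1 without ECKO 2 or without ECKO 3. That 1 gene was Hist1h2al, so every other call given below ended when ECKO 2 or ECKO 3 was left out. The sign of the difference was the same in each of these fits for every one of the 148 genes that still passed the filter. Because their groups did not overlap, leaving out 1 library could not turn a sign, so this does not measure stability.

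**Figure D2:**
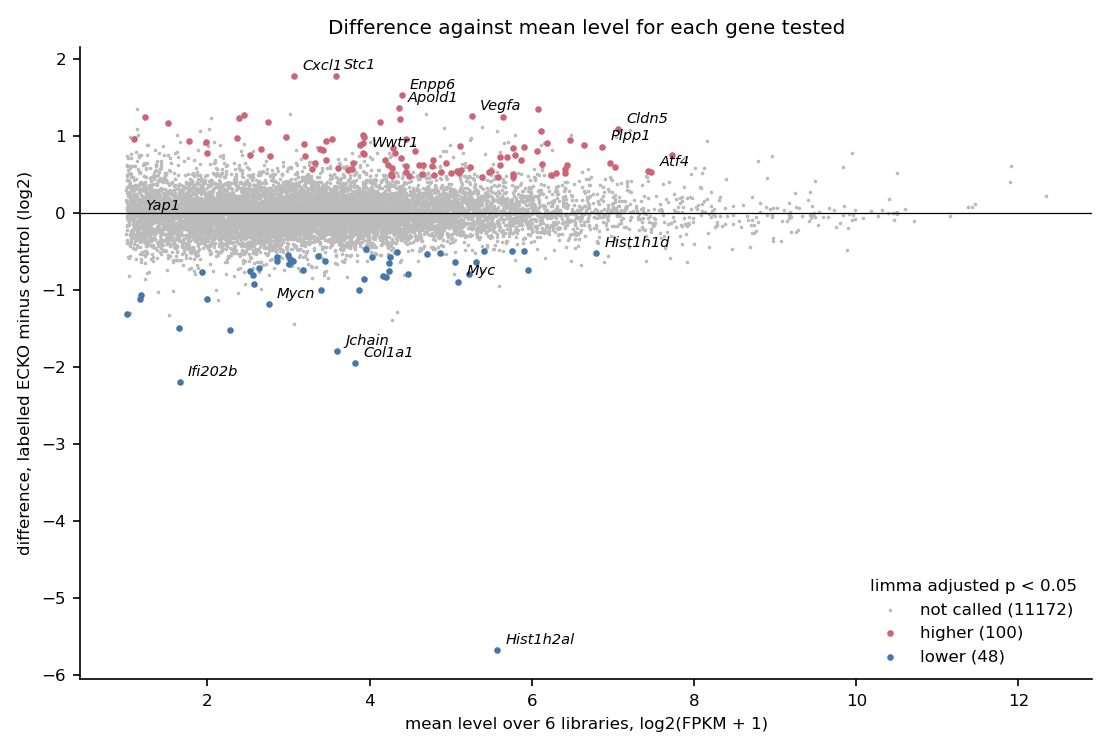
Mean level of each tested gene over 6 libraries, as log2(FPKM + 1), against its difference between the libraries labelled ECKO and control on the same log2 scale; coloured points are called genes. The 100 higher genes end at 1.78 (Stc1), while Hist1h2al at -5.68 lies far below the other 47 lower genes.

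Endothelial markers were present in all 6 libraries, and so were markers of blood cells. The summed level of 24 endothelial markers was 1383, 1419 and 1354 FPKM in controls and 1535, 1779 and 1802 FPKM under the ECKO label, with Cd34, also a progenitor marker, the most abundant and none at 0. All ECKO libraries were above all controls. Cdh5, whose promoter drives the Cre, stood at 105, 111 and 101 FPKM in controls and 113, 130 and 143 FPKM under the ECKO label (0.28, limma adjusted p = 0.217). Pecam1, the adhesion molecule CD31, stood at 63.0, 59.4 and 57.1 FPKM and at 66.9, 76.9 and 77.0 FPKM (0.29, limma adjusted p = 0.155). Of the 24 markers, limma called 0, 17 were at an unadjusted p under 0.05, and limma-voom on recovered reads called 4. Their median difference was 0.29, 16 had all ECKO libraries above all controls and 0 had all below, and 16 of the 24 are held by other lists too. In bulk RNA, fewer or more cells of a type and less or more RNA per cell cannot be told apart. In tables of the same series that were normalized separately, the same 24 markers summed to a mean of 3448 FPKM in metaphyseal ECs, 3289 FPKM in marrow ECs and 7834 FPKM in the Lats2 controls.

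The summed levels of erythroid, neutrophil and macrophage markers each exceeded the endothelial sum in every library, while those of B and plasma cells, megakaryocytes, mast cells and T and NK cells were below it. Sums over different genes do not measure how much RNA each cell type gave. The 17 erythroid genes, most abundant in the beta globin Hbb-bs, summed to 5767, 4981 and 5972 FPKM in controls and 7163, 4822 and 5392 FPKM under the ECKO label. The 22 neutrophil genes, with the calcium-binding protein gene S100a9 as the most abundant, summed to 2874, 2541 and 3281 FPKM and to 4633, 2148 and 2028 FPKM. ECKO 1 was the highest library for both cell types, while ECKO 2 and ECKO 3 were below all controls for neutrophil genes, and the groups overlapped for both sums. No erythroid gene and no neutrophil gene was called by limma, 3 of each were at an unadjusted p under 0.05, and limma-voom called 0 of either. The median differences, -0.10 and -0.12, changed sign in 1 and 3 of 15 alternative settings, where they ranged from -0.25 to 0.07 and from -0.51 (without ECKO 1) to 0.09 (without ECKO 3). The 22 macrophage and dendritic cell genes summed to 2711, 2615 and 3341 FPKM in controls and 2645, 2443 and 2368 FPKM under the ECKO label, with the lysozyme gene Lyz2 as the most abundant. Of 21 tested, 1 was lower, 20 were not called and the median was -0.16, with a range from -0.28 (without control 2) to -0.02 (without control 3). No marker of these 3 lists was at 0 in all libraries, and their part in the results below was not tested.

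**Figure D3:**
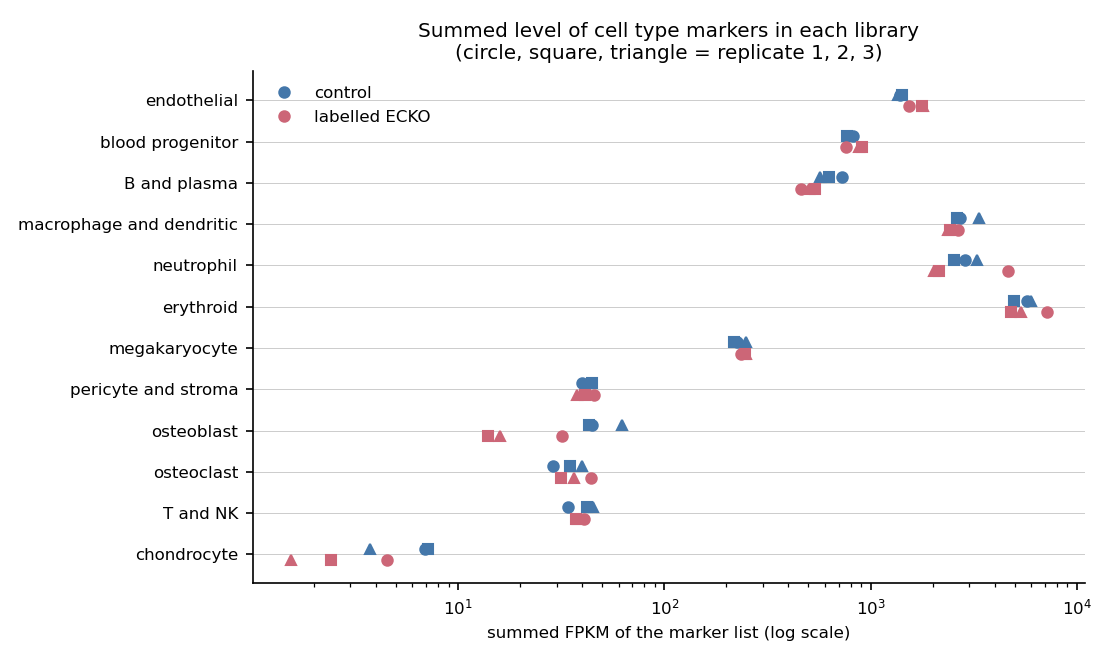
Summed FPKM of cell type marker lists in each library, on a log axis; blue is control, red is labelled ECKO, and circles, squares and triangles are replicates 1, 2 and 3. Erythroid sums are the highest in every library, endothelial sums are higher in the 3 libraries labelled ECKO, and B and plasma cell and osteoblast sums are lower there.

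Vegfa and Stc1 were among the most strongly raised genes. Vegfa (ENSMUSG00000023951, chr17:46016993-46032369), the growth factor that signals through the endothelial receptor Kdr, stood at 19.6, 27.8 and 17.6 FPKM in controls and at 42.7, 55.1 and 60.5 FPKM in the libraries labelled ECKO. The lowest ECKO library was above the highest control, and the means of 21.7 ± 5.45 and 52.8 ± 9.16 FPKM (SD, n = 3 each) differed by 1.26 (SE 0.18, limma adjusted p = 0.0235). Without control 3 the difference was 1.13 (limma adjusted p = 0.0697). Stc1 (ENSMUSG00000014813, chr14:69029238-69041804), which encodes the secreted glycoprotein stanniocalcin-1, stood at 4.67, 4.35 and 3.67 FPKM in controls and at 10.8, 21.5 and 20.8 FPKM under the ECKO label. ECKO 1 was at about the middle between the controls and the other ECKO libraries, and the difference was 1.78 (SE 0.22, limma adjusted p = 0.0169). It was 1.80 without control 2 and 1.70 without control 3, with limma adjusted p-values of 0.0564 and 0.0568. Without ECKO 2 and without ECKO 3, Vegfa differed by 1.22 and 1.15 and Stc1 by 1.62 and 1.64, none of them called. Set against the summed endothelial markers of the same library, the ratio of ECKO to control was 1.98 for Vegfa, 3.35 for Stc1 and 1.46 for Wwtr1, each with groups that did not overlap. In the tables normalized separately, Vegfa had a mean of 0.0588 FPKM in metaphyseal ECs, 0.207 FPKM in marrow ECs and 7.63 FPKM in the Lats2 controls, levels below the 6 libraries here. Stc1 had means of 28.8, 91.7 and 15.3 FPKM in the same tables.

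Vascular lists had positive medians, and few of their genes passed the threshold; the endothelial marker sum was also higher in the libraries labelled ECKO, and its part in these results was not tested. Cldn5, a tight junction protein that seals the endothelial barrier, rose from 89.5, 92.3 and 71.4 FPKM in controls to 161, 194 and 185 FPKM under the ECKO label. All ECKO libraries were far above all controls, and the difference was 1.09 (SE 0.12, limma adjusted p = 0.0117), or 1.03 and 1.07 without ECKO 2 and without ECKO 3. Relative to the endothelial marker sum Cldn5 was 1.74 times as high, at 103 to 109 against 52.7 to 65.0 FPKM per 1000 FPKM. Of 16 junction genes tested limma called Cldn5 alone, 15 were not called, and the median was 0.26. At an unadjusted p under 0.05 there were 9, and limma-voom called 3. Ctnnb1, the beta-catenin gene, was the most abundant of them and shares 14.6% of its exon bases with the other strand.

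Flt4, the receptor for Vegfc, rose from 48.8, 57.1 and 54.6 FPKM in controls to 76.8, 83.2 and 92.4 FPKM under the ECKO label (0.64, SE 0.11, limma adjusted p = 0.0347). In the VEGF and angiopoietin list, Vegfa and Flt4 were the 2 called of 14, 12 were not called and the median was 0.27. Stab1, a scavenger receptor of sinusoidal endothelium, rose from 60.5, 75.5 and 66.6 FPKM to 105, 99.9 and 107 FPKM (0.62, limma adjusted p = 0.0347). Cd38, an ectoenzyme that degrades NAD, rose by 0.51 from 41.7 to 45 FPKM in controls to 56.8 to 68.0 FPKM. Stab1, Flt4 and Cd38 were the 3 called of 14 sinusoidal genes, with 11 not called and a median of 0.34. Vcam1, an adhesion receptor for leukocytes and the most abundant sinusoidal gene, was at 670 to 888 FPKM in controls and at 775 to 881 FPKM under the ECKO label. Relative to the endothelial marker sum, Flt4 and Stab1 were 1.28 and 1.26 times as high, without overlap of the groups.

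Transcription factors and guidance genes of endothelium held single calls by limma. Sox7, a SoxF factor, rose from 2.24, 4.62 and 2.60 FPKM to 5.97, 9.18 and 9.66 FPKM (1.18, SE 0.23, limma adjusted p = 0.0423). It was the 1 called of 18 SoxF, ETS and GATA genes, with 17 not called and a median of 0.19, and the haematopoietic and endothelial cofactor gene Lmo2 was the most abundant. Sema3f, a secreted semaphorin, rose from 13.6 to 15.8 FPKM in controls to 21.6 to 27.2 FPKM, the 1 called of 21 semaphorin, plexin and neuropilin genes (20 not called, median 0.25). Ramp3, which pairs with the receptor Calcrl to bind adrenomedullin, rose by 0.94 from 5.50 to 8.4 FPKM to 11.6 to 15 FPKM. It was the 1 called of 7 in its receptor family, where the median was 0.49 and Calcr, the calcitonin receptor gene, was listed at 0 in all libraries. Calcrl itself was at 52.5 to 64.3 FPKM in controls and 76.1 to 91.8 FPKM under the ECKO label, apart but not called (limma adjusted p = 0.0654), and called without ECKO 1 (0.55, limma adjusted p = 0.0496). Dll1, a Notch ligand, was the 1 called of 16 Notch genes (15 not called, median 0.27), at 4.74 to 7.09 and 9.19 to 11.9 FPKM. Because 20.6% of its exon bases are shared with the other strand, Dll1 is uncertain. Of 12 arterial and tip cell genes, Plaur was called and 11 were not (median 0.36). Cxcr4, a chemokine receptor and their most abundant gene, was at 177 to 235 and 261 to 313 FPKM and not called, but was without ECKO 1 (0.59, limma adjusted p = 0.0482). In these 5 lists, in the order given, 9, 11, 5, 7 and 8 genes were at an unadjusted p under 0.05. Limma-voom called 4, 3, 3, 3 and 2. All ECKO libraries were above all controls in 7, 8, 3, 7 and 6, and below in 1, 2, 0, 1 and 1.

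In the cytokine and chemokine list 5 of 23 tested genes rose, 0 fell, 18 were not called and the median was 0.26. Cxcl1, a chemokine that attracts neutrophils, rose from 3.10, 3.05 and 2.03 FPKM in controls to 8.09, 14.7 and 13.3 FPKM under the ECKO label (1.78, SE 0.21, limma adjusted p = 0.0117). Cxcl2, its neighbour and relative, rose from 16, 16.3 and 16.4 FPKM to 23.6, 25.6 and 26.6 FPKM (0.61, limma adjusted p = 0.0305). Il1b, which encodes interleukin-1 beta and was the most abundant of the list, rose from 55.8, 45.8 and 31.8 FPKM to 79.1, 104 and 92.4 FPKM (1.06, SE 0.18, limma adjusted p = 0.0387). In each of these genes the lowest ECKO library was above the highest control. Il1a rose by 0.64 and Acod1, an enzyme of activated macrophages that makes itaconate, rose by 0.93. Acod1 was highest in ECKO 1, at 5.63 FPKM against 3.72 and 3.29 FPKM in ECKO 2 and ECKO 3. Cxcl1, Cxcl2, Il1b and Il1a were each lowest in ECKO 1 among the ECKO libraries, an order found in 78 of the 100 higher genes. Il1a shares 11.2% of its exon bases with the other strand. Without ECKO 2 or ECKO 3, 0 of the 23 were called, and without control 2 or control 3, 1 was. The neutrophil and macrophage sums given above overlapped between groups, and their part in this result was not tested.

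NF-kappaB is a transcription factor family activated by such cytokines. Nfkbiz and Bcl3, nuclear IkappaB proteins that modify its transcription, rose by 0.86 and 0.77, and Traf1, an adaptor of TNF receptors, by 0.78. Nfkbiz stood at 37.1, 40.7 and 45.7 FPKM in controls and at 55.6, 87.0 and 88.1 FPKM under the ECKO label. These were 3 of 21 tested genes, 18 were not called and the median was 0.22. Nfkbia, the main cytoplasmic inhibitor and most abundant member, was at 165 to 174 FPKM in controls and 183 to 263 FPKM under the ECKO label and was not called, but was without ECKO 1 (0.51, limma adjusted p = 0.0453). Without control 1 the number called was 1, and without any other single library but ECKO 1 it was 0; without ECKO 1 it was 6. Leukocyte adhesion genes held 0 calls of 15 by limma, with 7 at an unadjusted p under 0.05, 2 called by limma-voom and a median of 0.20. Interferon-stimulated genes held 0 of 24, with 5 at an unadjusted p under 0.05, 0 called by limma-voom and a median of -0.07 that changed sign in 1 of 15 alternative settings.

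Of the coagulation and fibrinolysis genes, 4 rose. Tfpi2, an inhibitor of plasmin and other proteases, rose from 5.15, 7.54 and 7.90 FPKM in controls to 11.8, 16.4 and 14.5 FPKM under the ECKO label (0.96, SE 0.17, limma adjusted p = 0.0387). Plaur, the urokinase receptor that focuses fibrinolysis at the cell surface, rose from 63.2, 67.2 and 47.3 FPKM to 90.5, 127 and 129 FPKM (0.95, SE 0.17, limma adjusted p = 0.0387). Procr, the endothelial protein C receptor, rose from 11.3, 9.73 and 7.16 FPKM to 15.2, 21.5 and 17.4 FPKM (0.88, limma adjusted p = 0.0423). F2r, the thrombin receptor PAR1, rose from 34.1 to 41.0 FPKM to 49.9 to 71.9 FPKM. In all of these, ECKO 1 was the lowest ECKO library and still above every control. They were the 4 called of 20 tested, with 16 not called and a median of 0.42. Thbd, thrombomodulin, was the most abundant at 120 to 133 FPKM in controls and 122 to 183 FPKM under the ECKO label, overlapping and not called, but called without ECKO 1 (0.54, limma adjusted p = 0.0244). Proc was listed at 0 in all libraries. Without control 2, control 3, ECKO 2 or ECKO 3, 0 of the 20 were called. The endothelial marker sum given above was also higher in the libraries labelled ECKO, and which cells held these transcripts was not tested.

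**Figure D4:**
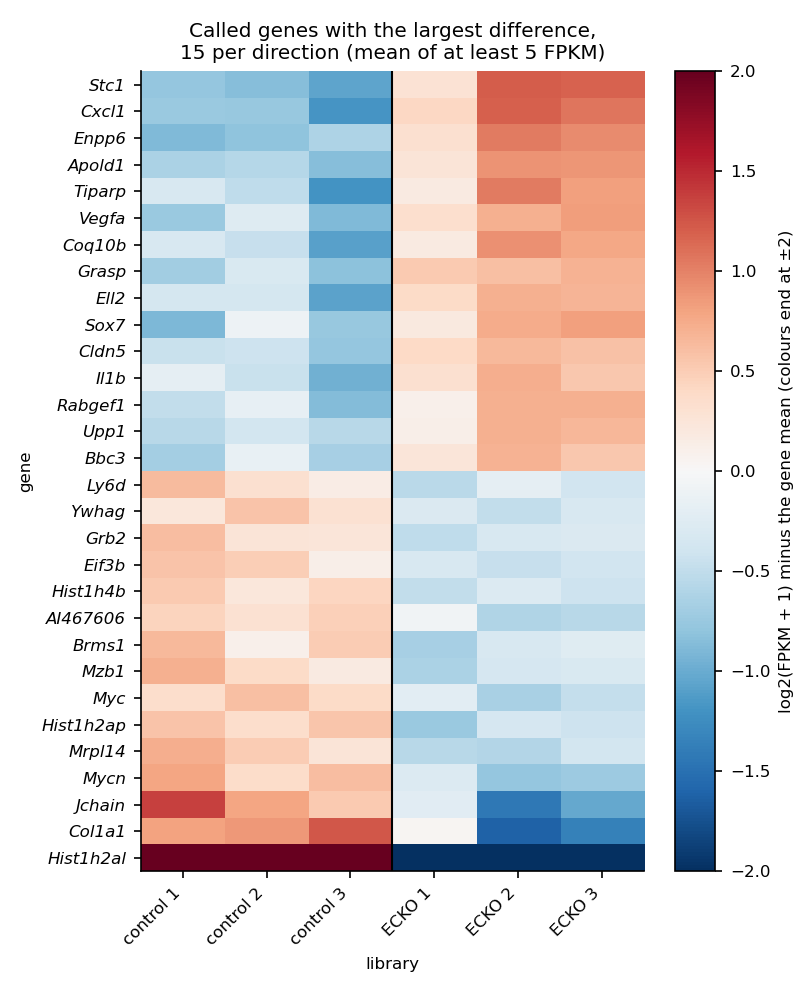
The 15 called genes per direction with the largest difference among those averaging 5 FPKM or more: log2(FPKM + 1) in each library minus the mean of the gene, red above and blue below it. Colours end at 2, so Hist1h2al is off the scale in both directions, and in most of the higher genes ECKO 1 is paler than ECKO 2 and ECKO 3.

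Enpp6, a choline-specific phosphodiesterase, rose from 8.74, 9.35 and 10.8 FPKM in controls to 21.4, 36.0 and 33.7 FPKM under the ECKO label (1.53, SE 0.18, limma adjusted p = 0.0117). Apold1, an early response gene of vascular endothelium, rose from 10.8, 11.3 and 9.15 FPKM to 20.8, 33.1 and 32.6 FPKM (1.36, SE 0.17, limma adjusted p = 0.0169). Relative to the endothelial marker sum they were 2.54 and 2.23 times as high, and their groups lay well apart. Grasp, a scaffold for receptor trafficking, rose from 10.7, 14.2 and 9.63 FPKM to 26.1, 27.7 and 29.6 FPKM (1.22, SE 0.14, limma adjusted p = 0.0117), and its ECKO libraries lay close to each other. Tiparp, an ADP-ribosyltransferase induced by the aryl hydrocarbon receptor, and Coq10b, a coenzyme Q binding protein, rose by 1.35 and 1.24, from control levels of 24.6 to 46.2 FPKM and 20.1 to 34.8 FPKM. In both, control 3 was the lowest library and ECKO 2 the highest. Ell2, an elongation factor of RNA polymerase II, rose by 1.18, Rabgef1, an exchange factor for the endosomal GTPase Rab5, by 1.01, and Upp1, uridine phosphorylase, by 0.99. Relative to the endothelial marker sum, Cxcl1, described above, was 3.55 times as high.

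By limma, few genes of each stress and signalling list were called. Atf4, a transcription factor of the integrated stress response, rose from 144, 141 and 147 FPKM to 205, 208 and 215 FPKM (0.54, SE 0.09, limma adjusted p = 0.0347), with little spread within either group. In the unfolded protein and Atf4 list, Atf4 and Herpud1, a component of protein degradation at the endoplasmic reticulum, were the 2 higher of 24, while Sdf2l1, an endoplasmic reticulum cochaperone, fell by 0.50. The other 21 were not called, and the median was 0.06. Hspa1b, an inducible Hsp70, was the 1 called of 17 heat shock genes (16 not called, median 0.07), at 2.54 to 4.51 and 6.59 to 7.56 FPKM. Reads of Hspa1b can be shared with its near-identical paralog, so its value is uncertain. Bbc3, the proapoptotic protein Puma, rose from 3.57, 5.57 and 3.62 FPKM to 7.57, 10.8 and 9.64 FPKM, the 1 called of 15 Bcl2 family genes (median 0.13) and of 18 p53 targets (median 0.19). Of 28 immediate early genes, Gadd45b rose by 0.90, Myc fell, and 26 were not called, with a median of 0.36. Junb, their most abundant member, was at 656 to 759 FPKM in controls and 879 to 1213 FPKM under the ECKO label, apart but not called (0.60, limma adjusted p = 0.0775), and called without ECKO 1 (0.75, limma adjusted p = 0.0142). Klf10 rose by 0.84, the 1 called of 14 Krueppel-like factors (median 0.07), and Errfi1, a feedback inhibitor of the EGF receptor, rose by 0.90, the 1 called of 14 in the ERK feedback list (median 0.32). Clk1, a kinase of splicing factors, rose by 0.54, the 1 called of 21 in its list (median -0.04). At an unadjusted p under 0.05 were 16 immediate early and 7 ERK feedback genes, and limma-voom called 9 and 1. All ECKO libraries were above all controls in 9 and 6 of these lists, and below in 3 and 0. The unfolded protein, heat shock, Bcl2, p53, Krueppel-like and Clk1 lists held 8, 6, 6, 7, 5 and 3 at that unadjusted p. Limma-voom called 5, 1, 3, 2, 2 and 1 of them.

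The hypoxia panel of the study held 7 called genes of 26 tested, all higher, with 19 not called and a median of 0.59. At an unadjusted p under 0.05 there were 24, and limma-voom called 19. The study chose this panel on these samples, so the count is not independent evidence of a direction, and 21 of the 26 genes are held by other lists. The 7 were Stc1, Apold1, Vegfa, Ramp3, Atf4, Bbc3 and Dll1, and 24 of the 26 had all ECKO libraries above all controls. Lrg1, a secreted glycoprotein that modifies TGF-beta signalling and the most abundant member, was at 206 to 228 FPKM in controls and 245 to 390 FPKM under the ECKO label and was not called (limma adjusted p = 0.108), but was without ECKO 1 (0.80, limma adjusted p = 0.00749). Without ECKO 1 the number called was 18, and without control 3, ECKO 2 or ECKO 3 it was 0. The endothelial marker sum given above was also higher in the libraries labelled ECKO, and its part in the panel was not tested. A separate list of 30 canonical HIF targets was written from general knowledge with the source data of the study in view. It shared 1 gene with the panel, Slc2a1, which is 3.85% of the panel and 3.33% of the canonical list. Vegfa, itself a HIF target, and Stc1 were called higher and are in the panel but not in the canonical list. The counts for the canonical list leave both out and are not an independent check of HIF targets. Limma called 0 of the 28 tested genes of the canonical list, 4 were at an unadjusted p under 0.05, limma-voom called 1, and the median was 0.14. Ldha, lactate dehydrogenase A, stood at 197, 164 and 147 FPKM in controls and 140, 162 and 164 FPKM under the ECKO label, with overlapping groups. Of 16 glycolysis enzymes limma called 0, with 1 at an unadjusted p under 0.05, 1 called by limma-voom and a median of -0.02, and Pkm, pyruvate kinase, was the most abundant, with 15.3% of its exon bases shared on its own strand.

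Promoters of single called genes are shown because several pathways named above act through short DNA motifs. RefSeq promoter entries of GRCm38.p6, 250 bases before to 50 bases after the start of transcription, were matched for 83 of the 100 higher and 36 of the 48 lower genes. Motifs were searched on both strands: the ACGTG form of the hypoxia response core, the Tead site CATTCC, the AP-1 site TGANTCA, the cAMP response element TGACGTCA and the NF-kappaB sites GGANTTTCC and GGAAANTCC. The GCGTG form of the hypoxia core was not searched, so the shares and matches given here do not cover it. The ACGTG form also lies inside the E-box CACGTG, found in 7.24% of all 27025 promoters. This form was in 15 of the 83 higher promoters (18.1%) and in 9 of the 36 lower ones (25.0%), against 19.7% of all promoters and 26.5% of the 9103 promoters of genes tested. The Tead site was in 11 (13.3%) and 7 (19.4%), against 14.6% and 11.2%. AP-1 sites were in 10 higher promoters (12%) and 1 lower promoter (2.78%), against 7.93% of all promoters and 4.71% of those of genes tested. NF-kappaB sites were in 4 (4.82%) and 0, against 1.23% and 1.27%, and the cAMP response element in 3 (3.61%) and 0, against 1.88% and 3.3%. These are descriptions of letters in a window and say nothing about binding or about sites outside it. In human endothelial cells, the study measured HIF1α binding at a hypoxia response element of VEGFA further upstream than this window reaches. The promoters printed below are examples, most of them with a match, and do not stand for the called genes. Among other higher genes that differ most, the promoters of Enpp6, Tiparp, Grasp, Cldn5, Il1b and Bbc3 held no match to the motifs searched. Those of Coq10b, Rabgef1 and Upp1 did. The sequences of Wwtr1 (chr3:57575861-57576160, minus strand), Vegfa (chr17:46032328-46032627, minus strand), Cxcl1 (chr5:90890995-90891294, plus strand), Apold1 (chr6:134981751-134982050, plus strand), Ell2 (chr13:75707234-75707533, plus strand) and Plaur (chr7:24462233-24462532, plus strand) are given 5′ to 3′, with matches in capitals: a Tead site in Wwtr1, a hypoxia core and an NF-kappaB site in Cxcl1, a hypoxia core in Apold1, a cAMP response element in Ell2, an AP-1 site in Plaur and no match in Vegfa.
Wwtr1: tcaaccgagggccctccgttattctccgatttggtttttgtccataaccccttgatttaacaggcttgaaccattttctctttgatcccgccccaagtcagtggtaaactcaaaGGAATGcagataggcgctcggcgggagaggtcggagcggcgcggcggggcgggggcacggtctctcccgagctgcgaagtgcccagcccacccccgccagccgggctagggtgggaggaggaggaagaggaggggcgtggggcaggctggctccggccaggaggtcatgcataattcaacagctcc
Vegfa: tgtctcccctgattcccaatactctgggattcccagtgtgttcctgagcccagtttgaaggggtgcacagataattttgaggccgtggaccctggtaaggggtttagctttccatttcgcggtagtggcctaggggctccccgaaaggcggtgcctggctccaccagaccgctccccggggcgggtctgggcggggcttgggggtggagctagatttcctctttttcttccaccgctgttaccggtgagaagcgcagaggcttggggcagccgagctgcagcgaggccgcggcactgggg
Cxcl1: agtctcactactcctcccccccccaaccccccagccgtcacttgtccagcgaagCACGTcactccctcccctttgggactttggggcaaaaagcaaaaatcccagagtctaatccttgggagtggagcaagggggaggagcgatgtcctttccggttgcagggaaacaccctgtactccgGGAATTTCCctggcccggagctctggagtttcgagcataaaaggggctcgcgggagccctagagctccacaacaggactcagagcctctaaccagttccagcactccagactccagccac
Apold1: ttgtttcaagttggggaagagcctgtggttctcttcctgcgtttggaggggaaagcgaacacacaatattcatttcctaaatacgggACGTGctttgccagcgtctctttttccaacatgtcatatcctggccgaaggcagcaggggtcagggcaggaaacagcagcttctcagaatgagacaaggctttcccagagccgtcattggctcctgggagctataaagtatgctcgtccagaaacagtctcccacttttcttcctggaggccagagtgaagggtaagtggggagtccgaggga
Ell2: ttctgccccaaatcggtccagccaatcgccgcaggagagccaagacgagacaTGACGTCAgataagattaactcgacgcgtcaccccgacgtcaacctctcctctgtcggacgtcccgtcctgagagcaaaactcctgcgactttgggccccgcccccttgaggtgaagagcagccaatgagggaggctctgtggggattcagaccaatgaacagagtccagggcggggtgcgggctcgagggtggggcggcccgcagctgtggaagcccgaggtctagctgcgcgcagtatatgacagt
Plaur: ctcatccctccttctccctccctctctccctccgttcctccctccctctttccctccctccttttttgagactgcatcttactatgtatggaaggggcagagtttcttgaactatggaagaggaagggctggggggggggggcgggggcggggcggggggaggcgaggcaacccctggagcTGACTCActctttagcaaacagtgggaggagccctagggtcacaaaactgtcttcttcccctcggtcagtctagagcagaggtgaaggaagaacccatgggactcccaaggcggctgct

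The largest difference among all tested genes was in Hist1h2al, which the annotation lists as a processed pseudogene. Hist1h2al (chr13:51202727-51203065) stood at 98.7, 81.9 and 95.7 FPKM in controls and at 1.13, 0.452 and 0.931 FPKM in the libraries labelled ECKO. The groups lay far apart, with recovered reads of 159, 191 and 201 against 2, 1 and 2, and the difference was -5.68 (SE 0.15, limma adjusted p = 6.32e-08). It was called in all 15 alternative fits, at -6.69 to -5.52. It shares 32.2% of its exon bases with a gene on the other strand and resembles other histone sequences, so its assignment is uncertain. In the tables normalized separately it had means of 0 FPKM in marrow ECs and in Lats2 controls and 0.179 FPKM in metaphyseal ECs, so the 3 controls here are the libraries that stand apart. Ifi202b, an interferon-inducible gene, had a like pattern and was chosen after its values were seen. It stood at 4.46, 2.02 and 6.21 FPKM in controls, at 0.238 FPKM in ECKO 1 and at 0 in ECKO 2 and ECKO 3, and it fell by 2.19 (SE 0.29). In the separate tables Ifi202b was at 0 in marrow ECs and at a mean of 0.03 FPKM in metaphyseal ECs. Its means were 10.2 FPKM in Lats2 controls and 7.76 FPKM in the libraries labelled Lats2 cKO. The cause of either pattern was not tested.

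Replication histone genes are transcribed in S phase and encode the histones that package new DNA. Of 53 tested members of their list 5 fell, 0 rose and 48 were not called, and the median was -0.36. Of the 5, 1 was the pseudogene Hist1h2al and 4 were protein-coding genes. All ECKO libraries were below all controls in 26 and above in 1. The list summed to 9980, 9348 and 9622 FPKM in controls and 6726, 7875 and 8363 FPKM under the ECKO label, each ECKO library below each control. Hist1h2ap fell by 0.99 and Hist1h4b by 0.79, with 28.6% and 56.2% of their exon bases shared with the other strand. Hist2h4 fell by 0.64, and Hist1h1d, a linker histone, fell from 144, 125 and 121 FPKM to 91.6, 87.6 and 90.3 FPKM (-0.52, SE 0.10, limma adjusted p = 0.0423). Hist1h4k, the most abundant, was at 961 to 1177 FPKM and 577 to 914 FPKM and was not called. Histone genes share long identical stretches, so single members are uncertain. Without control 3, ECKO 2 or ECKO 3 only Hist1h2al was called, and without control 2 there were 3. The B and plasma cell marker sum was also lower, at 725, 630 and 572 FPKM in controls and 462, 536 and 503 FPKM under the ECKO label, with 11 of 18 genes below all controls in every ECKO library. Its part in the falls of histones, Myc, Mycn and the cell cycle gene Sgo1 was not tested.

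Myc, a transcription factor that promotes growth and division, fell from 40.3, 48.0 and 41.0 FPKM to 27.0, 19.5 and 22.3 FPKM (-0.89, SE 0.13, limma adjusted p = 0.0235). Mycn, its relative in progenitor cells, fell from 9.66, 6.97 and 8.44 FPKM to 4.10, 2.60 and 2.73 FPKM (-1.18, SE 0.17, limma adjusted p = 0.0235). In both genes every library labelled ECKO lay below every control. Sgo1, which protects centromere cohesion in mitosis, fell by 0.92, the 1 called of 36 cell cycle genes (35 not called, median -0.19). Of those 36, 14 had all ECKO libraries below all controls and 0 had all above, and Mcm6, a helicase subunit and the most abundant, was at 153 to 173 FPKM and 136 to 165 FPKM. Eif3b, a translation initiation factor, fell from 30.7, 28.9 and 22.3 FPKM to 16, 14.5 and 15.3 FPKM (-0.79, SE 0.13). Grb2, an adaptor of receptor tyrosine kinases, fell by 0.75, Ywhag, a 14-3-3 protein, by 0.74 and the locus AI467606 by 0.82. Brms1, a subunit of histone deacetylase complexes, fell by 0.83, but 79.0% of its exonic sequence is also part of a neighbour on its own strand. Mrpl14, a mitochondrial ribosomal protein with 11.2% of its exon bases on the other strand of a neighbour, fell by 1.00.

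Among markers of B and plasma cells, Jchain, which links IgM and IgA into polymers, fell from 24.2, 15.9 and 13.1 FPKM to 7.32, 2.64 and 3.78 FPKM (-1.79, SE 0.29, limma adjusted p = 0.0347). Mzb1, a chaperone of antibody secretion, fell by 0.85, and 57.2% of its exonic sequence is also part of a neighbour on its own strand. They were the 2 called of 18 tested, with 16 not called and a median of -0.43, and 11 genes had all ECKO libraries below all controls and 0 had all above. None of the 18 genes was at 0 in all libraries, and Dntt, the terminal transferase of immature lymphocytes, was the most abundant with overlapping groups. Ly6d, a surface protein of early B lineage cells, fell from 91.2, 73.8 and 65.5 FPKM to 40.3, 51.5 and 44.8 FPKM (-0.74, SE 0.14, limma adjusted p = 0.0417). Ighm, Igkc and Iglc2 were not found among the 21603 genes listed, so they could not be analysed. Without ECKO 2 or ECKO 3, 0 of the 18 were called. Cd209a, a lectin of dendritic cells, fell by 1.52 from 6.39, 5.29 and 6.64 FPKM to 2.60, 1.61 and 0.593 FPKM. Among 20 tested MHC genes H2-Q7 fell by 0.54, 19 were not called and the median was -0.20, and H2-Q7 has near-identical paralogs.

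Among bone matrix genes, Col1a1, the main chain of collagen I, fell from 18.2, 19.2 and 25.2 FPKM to 10.3, 2.61 and 3.33 FPKM (-1.95, SE 0.35, limma adjusted p = 0.0388). ECKO 1 lay between the controls and the other ECKO libraries. Without control 1 the difference was -2.03 (limma adjusted p = 0.0544), and it was -2.0 without control 2, -1.81 without control 3, -1.63 without ECKO 2 and -1.76 without ECKO 3, none of them called. Without ECKO 1 it was -2.46 and called (limma adjusted p = 0.000538). Bglap and Bglap2, near-identical osteocalcin genes, fell by 1.11 and 1.31 from 1.23 to 2.68 FPKM in controls to at most 0.693 FPKM, with Bglap2 listed at 0 in ECKO 2 and ECKO 3. Bglap and Bglap2 averaged 2.07 and 1.88 FPKM in controls and 0.418 and 0.152 FPKM under the ECKO label. Both passed the filter only through the controls, so their calls are descriptions and support no conclusion. With Col1a1 they were 3 of 7 osteoblast genes tested, with 4 not called and a median of -1.11. That median rests on which of the 15 genes pass the filter and on single libraries: it was -0.19 with no filter, -0.60 without control 3, and -1.77 at its lowest over 15 alternative settings. The 15 osteoblast genes summed to 44.8, 42.9 and 62.4 FPKM in controls and 31.9, 14.0 and 15.9 FPKM under the ECKO label. Dmp1 and Mepe, markers of osteocytes, were listed at 0 in all libraries. Of 14 collagens Col1a1 alone was called, 13 were not and the median of -0.08 changed sign in 2 of 15 alternative settings. Col4a1 of the basement membrane was the most abundant, at 204 to 245 FPKM and 231 to 288 FPKM. Timp4, a metalloproteinase inhibitor, fell by 1.07 and Mmp15, a membrane-bound metalloproteinase, rose by 0.82, the 2 called of 19 in their list (17 not called, median 0.28). Timp4 averaged 2.07 FPKM in controls and 0.456 FPKM under the ECKO label. It passed the filter only through the controls, so its call is a description.

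Markers of further cell types held few calls. Of 13 megakaryocyte genes, Ppbp, a platelet chemokine, rose from 1.95, 2.15 and 2.54 FPKM to 6.15, 7.13 and 7.01 FPKM (1.27, SE 0.13, limma adjusted p = 0.0117). Tubb1, the platelet beta-tubulin, fell by 1.11 from 3.51 to 4.95 FPKM to 1.13 to 2.13 FPKM, so 2 genes of the same cell type moved in opposite directions. The other 11 were not called, the median was -0.06, and Pf4 was the most abundant at 113 to 132 and 125 to 144 FPKM. Among 16 blood progenitor genes Procr rose, Mycn fell, 14 were not called and the median was 0.05. Pericyte and stromal genes summed to 39.9, 44.6 and 43.8 FPKM in controls and 45.4, 41.3 and 37.5 FPKM under the ECKO label. Limma called 0 of 10 of them, 0 of 6 osteoclast genes, 0 of 7 mast cell and basophil genes and 0 of 3 T and NK cell genes. At an unadjusted p under 0.05 there were 2, 0, 1 and 1 of these, and limma-voom called 1, 0, 0 and 0. Their medians were 0.01, 0.09, 0.28 and -0.05, which changed sign in 5, 1, 0 and 3 of 15 alternative settings. Of 15 chondrocyte genes only Col2a1, the cartilage collagen, was tested, at 1.21 to 4.58 FPKM and 0.371 to 0.749 FPKM and uncalled by limma (unadjusted p under 0.05). Limma-voom called it, and without control 3 limma did too (-1.73, limma adjusted p = 0.0292). Ddx3y, a gene on the Y chromosome, was at 16.7, 11.4 and 17.7 FPKM in controls and 15.5, 13.5 and 12.3 FPKM under the ECKO label, so the groups overlapped.

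Large housekeeping families held 1 call, in the mitochondrial ribosome. Limma called 0 of 81 cytosolic ribosomal proteins (median -0.03, with a change of sign in 3 of 15 alternative settings), 0 of 77 nuclear-coded subunits of oxidative phosphorylation (median -0.07) and 0 of 38 proteasome subunits (median -0.07). At an unadjusted p under 0.05 there were 3, 4 and 5 of them, and limma-voom called 0, 0 and 2. Of 76 mitochondrial ribosomal proteins Mrpl14 alone was called, with a median of -0.14. That share is near the 1.31% called over all tested genes, so it is no result about the family. Genes of the mitochondrial genome had a median of 0.59, yet limma called 0 of 12, with 8 at an unadjusted p under 0.05 and 3 called by limma-voom. Their sums were 8358, 9377 and 10600 FPKM in controls and 16480, 13980 and 11390 FPKM under the ECKO label, with the largest sum in ECKO 1. Cholesterol synthesis held 0 calls of 20 (6 at an unadjusted p under 0.05, 1 by limma-voom, median -0.19) and the circadian clock 0 of 14 (4 and 1, median 0.07, with a change of sign in 2 of 15 alternative settings). The cAMP response list held 0 of 16 (8 and 5, median 0.29), and its most abundant gene, the nuclear receptor gene Nr4a1, overlapped between groups at 317 to 500 and 403 to 690 FPKM. Of 15 regulators of G protein signalling limma called 0 (9 and 4, median 0.28), and Rgs4 was at 30.2 to 40.1 and 47.8 to 87.7 FPKM without a call, but was called without ECKO 1 (1.30, limma adjusted p = 0.00465). With no library left out, Rgs4 was also called under the filter of 5 FPKM, quantile normalization, array weights and limma-voom. In the TGF-beta and BMP list Id2, an inhibitor of helix-loop-helix factors, rose from 57.6, 64.9 and 62.7 FPKM to 83.8, 90.9 and 88.0 FPKM (0.50, SE 0.09, limma adjusted p = 0.0406), the 1 called of 24 (23 not called, median 0.28). Of the 24, 14 were at an unadjusted p under 0.05, and limma-voom called 8. All ECKO libraries were above all controls in 15 and below in 1.

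**Figure D5:**
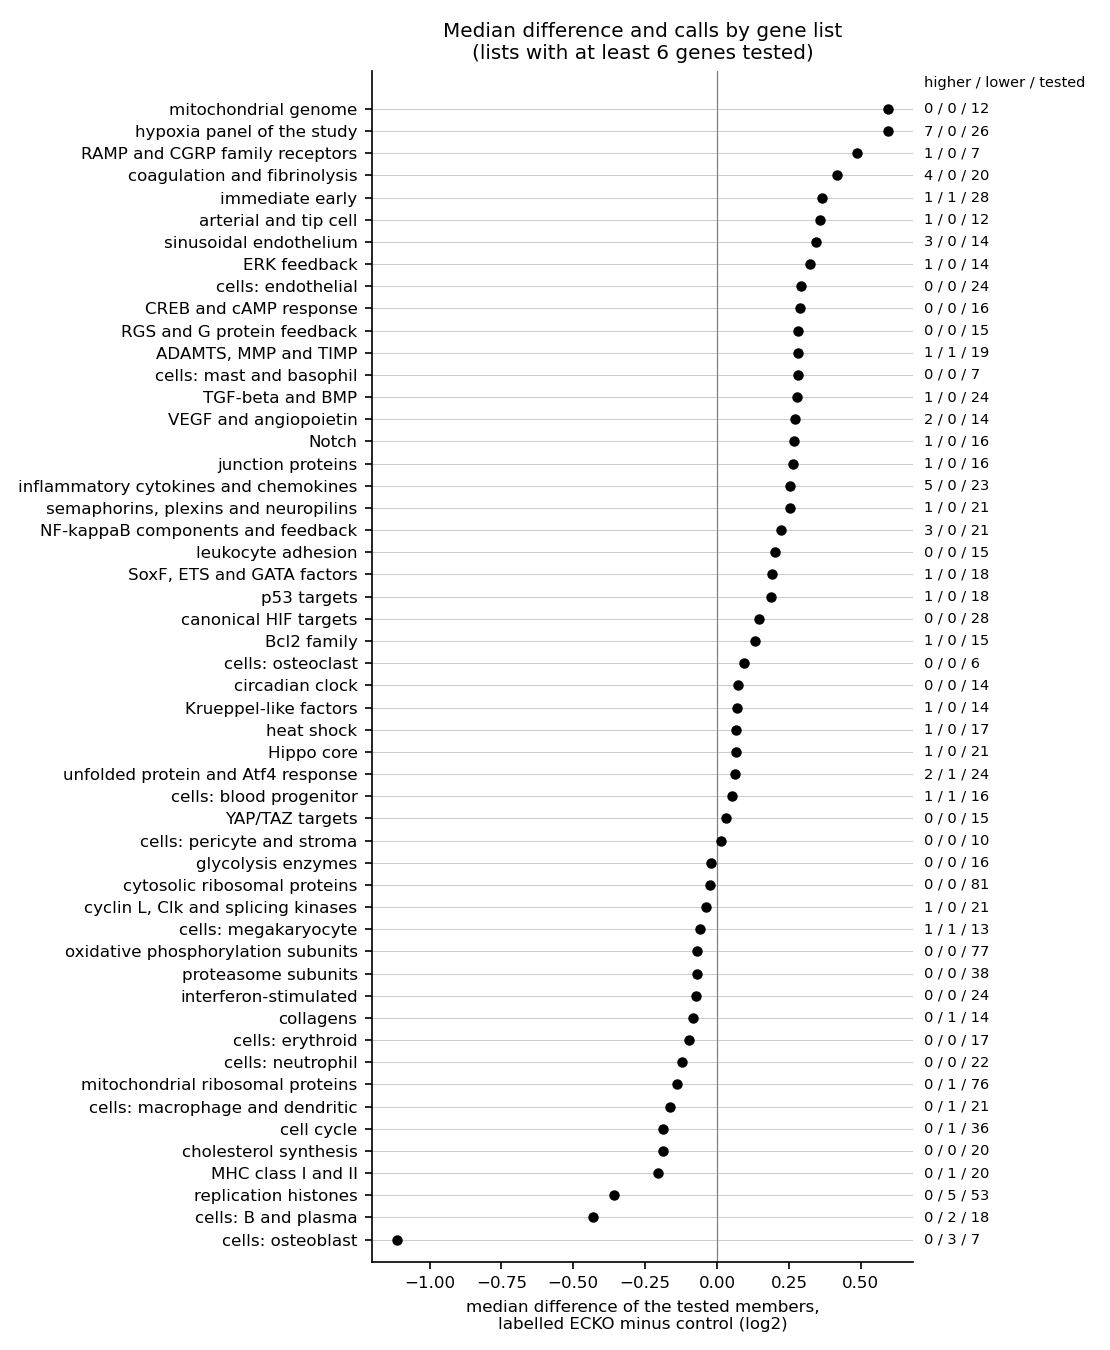
Median difference of the tested members of each gene list with at least 6 genes tested, libraries labelled ECKO minus control on the log2 scale, with the numbers called higher, called lower and tested at the right. Medians run from -1.11 for osteoblast markers (-1.77 to -0.19 over alternative settings) to 0.59 for the hypoxia panel and the mitochondrial genome.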

How the data were processed

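Bone ECs were profiled by RNA-seq. According to the study's methods and the submitters' notes, the authors aligned reads to GRCm38 with TopHat and counted them per gene with HTSeq 0.6.1, and they deposited FPKM values; the step from counts to FPKM is not given in the sources used here. From these values, log2(FPKM + 1) was computed for genes averaging 1 FPKM or more and tested with limma 3.58.1 under R 4.3.3 (1 group term, trended empirical Bayes, two-sided, Benjamini-Hochberg adjustment). Groups follow the labels. Implied depth was 4670000 to 6880000 fragments. Values were turned back into reads with GENCODE M21 exon lengths; 62.3% to 63.4% of values under 20 reads lay within 0.02 of a whole number.

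Named genes are Yap1, Wwtr1, Vegfa, Stc1, the 15 called genes per direction that differ most without group overlap (mean of 5 FPKM or more), per gene list up to 6 called members and the most abundant one, and any Hippo or Yap1/Taz target gene. Defining endothelial markers check the label. Members and lists were chosen with earlier results of these data known. Alternatives changed the pseudocount, filter, scaling, variance model, thresholds, replicate block and single libraries.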

Additional observations from a re-analysis of the deposited data

How the results depend on the processing

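Counts of called genes moved widely with the variance model. All 148 called genes kept their sign in every alternative in which they were tested. Their groups did not overlap, so leaving out a library could not turn a sign, and this does not measure stability. With no filter, and at an adjusted p under 0.01 with an absolute difference over 0.5, 1 gene was called (Hist1h2al). There were 17 calls without the mean-variance trend, 693 with array weights, 386 with limma-voom on recovered reads, 129 with a pseudocount of 0.1, 184 with a mean of at least 5 FPKM, 173 after quantile normalization and 149 with size factors. Leaving out 1 library gave 1 to 293. Cxcr4, Calcrl, Junb and Lrg1, called without ECKO 1, were also called with array weights and with limma-voom when no library was left out. Wwtr1 differed by 0.78 with no filter (limma adjusted p = 0.0679) and without the trend (limma adjusted p = 0.057), and by 0.72 to 0.89 with 1 library left out. Yap1 ranged from -0.136 to 0.077 with 1 library left out and fell under a filter of 5 FPKM.

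Equal replicate numbers share only a number: deviations from the group means correlated at -0.175, -0.123 and -0.155 between same-numbered libraries, and no library correlated best with its own number. With the replicate block there were 45 calls, 42 of them among the 148. The cause of these shifts was not tested. The depth limits low genes such as Yap1, which had 47 to 103 reads.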

Other observations

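Several genes outside the lists were called with little spread within either group, and they were chosen after their values were seen. Cd300lg, a receptor of capillary and venular endothelium, stood at 29.2, 29.0 and 28.7 FPKM in controls and at 46.2, 43.4 and 43.0 FPKM in the libraries labelled ECKO (0.59, limma adjusted p = 0.025). Adgrf5, an adhesion G protein-coupled receptor, stood at 38.7, 39.5 and 39.6 FPKM and at 55.8, 55.0 and 53.6 FPKM (0.47). Tcn2, which carries vitamin B12 in blood, stood at 130, 145 and 142 FPKM and at 190, 206 and 216 FPKM (0.55). In each of the 3 genes ECKO libraries were above all controls.

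Gpihbp1 and Plpp1 were also chosen after their values were seen. Gpihbp1, which anchors lipoprotein lipase to capillary endothelium, stood at 95.5, 99.6 and 113 FPKM in controls and at 178, 146 and 143 FPKM under the ECKO label (0.59). Relative to the endothelial marker sum its groups overlapped, at 69.1 to 83.6 and 79.4 to 116 FPKM per 1000 FPKM. Plpp1, a lipid phosphatase that shares 25.8% of its exon bases with the other strand, stood at 86.6, 75.5 and 82.8 FPKM and at 146, 157 and 145 FPKM (0.86), and relative to that sum its groups were apart, at 53.2 to 62.6 and 80.6 to 95.0 FPKM per 1000 FPKM.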
